A study of Mus musculus with 2 samples.

Results

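ATF4 peaks were examined at the genes of 8 enzymes that make proline, aspartate, asparagine, alanine and glutamine: Aldh18a1, Pycr1, Oat, Got1, Got2, Asns, Gpt2 and Glul. They are 8 of the 21887 protein-coding genes that RefSeq places on the 21 chromosomes of the peak list. The enzymes were listed by name with earlier results of this library known, and every peak that overlapped 1 of the genes or the 10 kb beyond its ends was taken, which gave 9 of 7873 peaks.

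The study concerned endoplasmic reticulum stress and one-carbon metabolism after intracerebral hemorrhage, with CUT&Tag in neurons serving as its search for candidate ATF4 targets. CUT&Tag was performed on C57BL/6 primary neurons from embryonic cortex and hippocampus, with 1 library for an ATF4 antibody and 1 for control IgG, each from about 100000 cells. No genetic change is given for either library, and whether the neurons had been treated with hemin, the heme product used in the study as a model of hemorrhage, is not stated. In CUT&Tag the antibody tethers a transposase, which cuts and tags the DNA next to the bound protein. Only peaks of the ATF4 library were analysed here, so no value has a replicate error or a comparison with IgG, and a peak list holds no expression from which the identity of the cells could be checked.

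ATF4 is a leucine zipper transcription factor whose translation rises when eIF2α is phosphorylated, for example by PERK in endoplasmic reticulum stress. It is known for inducing amino acid synthesis and transport, and it binds composite sites called CARE (C/EBP-ATF response elements) with partners of the C/EBP family. The enzymes of this group draw on glutamate for carbon, nitrogen or both, or act on amino acids derived from it. Aldh18a1 reduces glutamate to the proline precursor pyrroline-5-carboxylate, Pycr1 completes proline in mitochondria, and Oat connects the same precursor to ornithine. Got1 in the cytosol and Got2 in mitochondria exchange the amino group between glutamate and aspartate, and together serve the malate-aspartate shuttle. Asns makes asparagine from aspartate, mitochondrial Gpt2 makes alanine from pyruvate, and Glul makes glutamine, in brain mainly in astrocytes.

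The sequences before the start sites of the 5 genes that carried a peak there are shown because the start-site peaks overlap them. They are from RefSeq (GRCm38.p6), 250 bases each, read 5′ to 3′ on the strand of the gene and ending 1 base before the annotated start site. Capitals mark matches to the CARE pattern TGATGNAAN on either strand, and that of Got1 lies on the opposite strand and so reads as its reverse complement. Pycr1, Got1 and Asns each held 1 match, and Aldh18a1 and Gpt2 held none in these bases. The stretches are chr11:120643749-120643998 (minus strand) for Pycr1, chr19:43524606-43524855 (minus) for Got1, chr6:7693210-7693459 (minus) for Asns, chr19:40588464-40588713 (minus) for Aldh18a1 and chr8:85492326-85492575 (plus) for Gpt2.
Pycr1: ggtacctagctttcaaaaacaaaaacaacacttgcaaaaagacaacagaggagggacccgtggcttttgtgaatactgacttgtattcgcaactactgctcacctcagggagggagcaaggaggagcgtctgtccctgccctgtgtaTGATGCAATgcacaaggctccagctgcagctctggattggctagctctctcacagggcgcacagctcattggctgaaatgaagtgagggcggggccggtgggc
Got1: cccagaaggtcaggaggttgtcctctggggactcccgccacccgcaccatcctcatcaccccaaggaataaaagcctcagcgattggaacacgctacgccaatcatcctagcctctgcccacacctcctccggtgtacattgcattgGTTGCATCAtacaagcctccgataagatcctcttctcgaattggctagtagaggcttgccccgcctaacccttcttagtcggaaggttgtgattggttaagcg
Asns: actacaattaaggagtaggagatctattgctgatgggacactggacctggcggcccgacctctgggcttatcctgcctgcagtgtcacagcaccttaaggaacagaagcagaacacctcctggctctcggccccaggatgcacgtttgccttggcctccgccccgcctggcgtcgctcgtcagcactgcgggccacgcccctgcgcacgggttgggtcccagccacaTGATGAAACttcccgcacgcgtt
Aldh18a1: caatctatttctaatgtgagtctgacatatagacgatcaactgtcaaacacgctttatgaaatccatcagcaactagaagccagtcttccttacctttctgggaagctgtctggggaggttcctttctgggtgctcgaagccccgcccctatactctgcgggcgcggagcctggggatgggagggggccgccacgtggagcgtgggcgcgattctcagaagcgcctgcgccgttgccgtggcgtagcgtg
Gpt2: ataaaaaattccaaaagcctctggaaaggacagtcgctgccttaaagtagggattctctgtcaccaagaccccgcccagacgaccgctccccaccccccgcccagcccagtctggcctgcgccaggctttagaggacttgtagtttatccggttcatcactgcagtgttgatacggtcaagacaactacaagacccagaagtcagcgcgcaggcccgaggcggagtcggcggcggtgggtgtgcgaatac

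A peak was listed for 5 of the 8 enzymes: Aldh18a1, Pycr1, Got1, Gpt2 and Asns. In each of them the strongest peak sat on the start site, with its summit between 101 bp upstream and 43 bp downstream. Got2, Glul and Oat had no peak inside the gene or within 10 kb. The proline, aspartate, alanine and asparagine branches were thus each represented by at least 1 start-site peak, and the glutamine branch by none. Among all protein-coding genes 24.8% had a peak inside the gene or within 10 kb, and 6.25% had such a peak with a -log10 q of at least 5, a limit that all 5 enzymes passed. With the summit required to lie within 1 kb of a gene end, the count stayed at 5 of 8 against 8.13% of protein-coding genes. With the summit within 250 bp of an annotated start site it was 5 of 8 against 5.19% of the 17492 protein-coding genes with a start site in the RefSeq promoter table. These shares are a description, since the enzymes were chosen with earlier results of this library known.

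Heights are given as the number of fragments stacked at the summit, solved from the deposited enrichment and p-value with the formulas of MACS2, and carry an exact Poisson interval (95%) for counting error only. Fold enrichment is the authors' value over the local background, which is the number of fragments expected at the summit. The q-values are the authors' too. Over all 7873 peaks the median was 4 fragments and a fold enrichment of 4.33, and 3224 peaks (41.0%) rested on 3 fragments. Over the 908 genes with a start-site peak the median was 6 fragments and a fold enrichment of 5.27. The 5 enzymes with a start-site peak had a median of 61 fragments and a fold enrichment of 16.2.

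In the proline branch, Aldh18a1 (chromosome 19, 40550257 to 40588463) carried the tallest peak of the group. It ran over 807 bp from 40587816 to 40588622, and 105 fragments (85.9 to 127.1) lay at its summit, 43 bp downstream of the start site. The fold enrichment was 18.0 (q = 4.7e-94), which placed it 28th of all peaks by q-value. It had the smallest q-value among the 908 genes with a peak within 250 bp of an annotated start site, and was second among them by fragments. In the wider set of 1780 genes with a peak within 1 kb of either gene end it ranked 4th by q-value, after Ppp1r15b, Wls and Ppp2r5a, which are named here only for that order.

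2 further peaks lay near Aldh18a1. The first, from 40589208 to 40589404, had its summit 833 bp upstream of the start site with 23 fragments (14.6 to 34.5) and a fold enrichment of 4.06 (q = 4.99e-06). That peak lay wholly inside Gm27042, an annotated lncRNA (40588532 to 40594865), and outside Aldh18a1. The other lay 6.06 kb beyond the far end of the gene, from 40544111 to 40544278, and rested on 3 fragments (0.619 to 8.77). The main summit was 43 bp from the end of Aldh18a1 and 112 bp from that of Gm27042, and in an unstranded peak list a site shared by both genes cannot be assigned to either.

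Pycr1 (chromosome 11, 120638998 to 120643748) had 1 peak, from 120643482 to 120644124. Its summit lay 101 bp upstream of the start site and held 61 fragments (46.7 to 78.4), with a fold enrichment of 16.2 (q = 4.44e-54, 49th of all peaks). No other gene end was nearer than 2182 bp. Oat (chromosome 7, 132557475 to 132576398) had no peak in its window. The nearest summit was 37.9 kb upstream of its start site, in Lhpp, with 3 fragments (0.619 to 8.77) and a fold enrichment of 3.68. Both genes of the consecutive steps from glutamate to proline thus had a listed peak at the start site. That at Aldh18a1 could not be assigned between Aldh18a1 and Gm27042. The ornithine route into the same precursor had no listed peak.

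In the aspartate branch a peak was listed for the cytosolic isoenzyme and none for the mitochondrial one. Got1 (chromosome 19, 43499752 to 43524605) had 1 peak, from 43524442 to 43525062, with 68 fragments (52.8 to 86.2) at a summit 50 bp upstream of the start site. Its fold enrichment was 17.4 (q = 3.1e-62, 42nd of all peaks). Got2 (chromosome 8, 95864133 to 95888401) had none. The nearest summit fell just outside the window, 10.8 kb beyond the 3′ end of Got2, with 4 fragments (1.09 to 10.2) and a fold enrichment of 4.53, and the nearest protein-coding gene of that peak was Slc38a7. It lay 35.1 kb from the Got2 start site.

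Gpt2, the alanine enzyme (chromosome 8, 85492576 to 85528902), had 3 peaks. The strongest, from 85492196 to 85492708, had its summit 92 bp upstream of the start site with 22 fragments (13.8 to 33.3) and a fold enrichment of 12.9 (q = 6.69e-21, 132nd of all peaks). The others lay inside the gene, 7.27 kb and 8.71 kb downstream of the start site. They held 6 (2.20 to 13.1) and 8 fragments (3.45 to 15.8), with fold enrichments of 5.01 and 6.44. Gpt2 was the only enzyme of the group with listed peaks inside the gene and away from its start site.

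Asns, a well-known ATF4 target gene that makes asparagine (chromosome 6, 7675165 to 7693209), had the lowest start-site peak of the group. It ran from 7692750 to 7693502, with 9 fragments (4.12 to 17.1) at a summit 18 bp downstream of the start site and a fold enrichment of 7.48 (q = 6.79e-08, 674th of all peaks). At 753 bp it was nevertheless wider than the peaks of Got1 (621 bp), Pycr1 (643 bp) and Gpt2 (513 bp). Over the 908 genes the median width of the start-site peak was 272 bp.

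Glul (chromosome 1, 153899929 to 153909723) stood farthest from any peak. The nearest summit on the chromosome was 567 kb away and held 3 fragments (0.619 to 8.77). Only 5.44% of protein-coding genes lay farther from the nearest listed summit, and the median gene was 61.7 kb from one. For Oat and Got2 the corresponding shares were 59.7% and 74.7%, so their distances were shorter than the median. A peak list holds no counts where nothing was called, so no upper limit can be given for the signal at Got2, Oat and Glul.

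**Figure D1:**
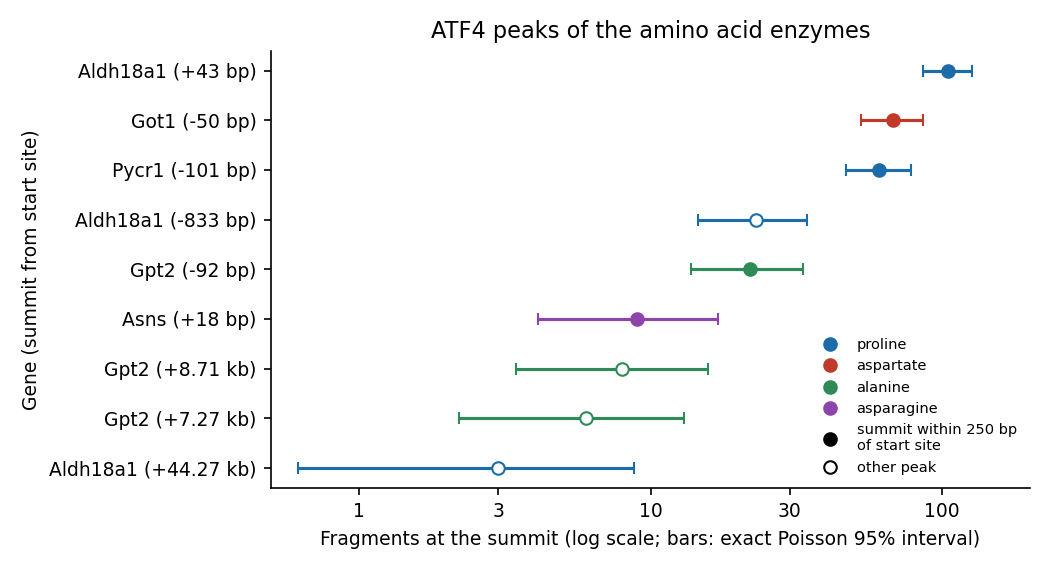
Fragments at the summit (log axis) of the 9 peaks in or within 10 kb of the enzymes, with exact Poisson 95% intervals, coloured by branch. Filled points are summits within 250 bp of the start site, from 9 fragments at Asns to 105 at Aldh18a1, and open points are the 4 other peaks, from 3 to 23.

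The branches were compared by the ratio of summit fragments at their strongest peak, with an exact 95% interval for counting error. The strongest proline peak (Aldh18a1) exceeded that of aspartate (Got1) 1.54 times (1.13 to 2.13), of alanine (Gpt2) 4.77 times (2.99 to 7.94) and of asparagine (Asns) 11.7 times (5.92 to 26.2). Proline had 2 genes with a peak, and aspartate, alanine and asparagine 1 each. The intervals take the strongest peak as fixed and leave out that choice. The proline value rests on the Aldh18a1 summit that could not be assigned between Aldh18a1 and Gm27042. Pycr1 and Got1 could not be ranked, with a ratio of 0.897 (0.624 to 1.29). Gpt2 exceeded Asns 2.44 times (1.08 to 6.03). Of the 10 pairs among the 5 enzymes, 9 had an interval that left out 1. These ratios compare stacks within 1 library and say nothing about the spread between preparations.

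The order was the same by fold enrichment but the distances shrank. Aldh18a1 exceeded Asns 11.7 times in fragments and 2.40 times in fold enrichment, and it exceeded Got1 1.03 times in fold enrichment. The local background was 4.90 fragments at Aldh18a1, 2.95 at Got1, 2.82 at Pycr1, 0.786 at Gpt2 and 0.337 at Asns, in the same order as the heights of the 5 peaks. The second Aldh18a1 peak held 23 fragments with a fold enrichment of 4.06 over a background of 4.92, whereas 22 fragments gave 12.9 at Gpt2. Its background was close to the 4.90 at the main Aldh18a1 summit nearby. Whether a tall peak adds to the local background around it was not tested.

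**Figure D2:**
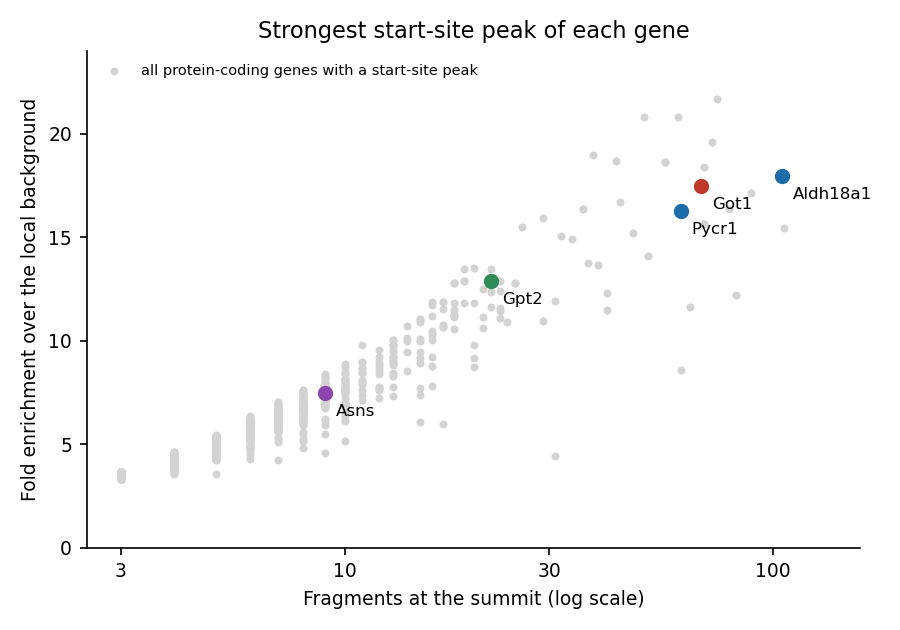
Fold enrichment over the local background against fragments at the summit (log axis) for the strongest start-site peak of each of 908 protein-coding genes (grey), with the 5 enzymes coloured by branch. Fold enrichment flattens at the tall end, where Aldh18a1 with 105 fragments and Got1 with 68 reach 18.0 and 17.4.

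The 5 start-site peaks covered the same kind of position. Each spanned the start site, reaching from 159 bp (Aldh18a1) to 457 bp (Got1) upstream and from 132 bp (Gpt2) to 647 bp (Aldh18a1) downstream. The summits of Pycr1, Gpt2 and Got1 were upstream of the start site, at 101, 92 and 50 bp, and those of Asns and Aldh18a1 downstream, at 18 and 43 bp. A match to TGATGNAAN was found in 3 of the 8 promoters (300 bases, from 250 bases before the start site onward, both strands), against 3.95% of the 32851 promoters in the RefSeq table. All 3 lay inside a peak, as any match there had to, since the peaks of Pycr1, Got1 and Asns covered all 300 bases searched.

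In Pycr1 the match TGATGCAAT ran from 103 to 95 bases before the start site, and the peak summit fell inside it. This more specific form was present in 63 promoters, 0.192% of the table. In Got1 the match TGATGCAAC lay on the opposite strand at the same distance, 103 to 95 bases before the start site and 45 bp from the summit. It shares its outermost base with 1 of the CCAAT matches of Got1. In Asns the match TGATGAAAC lay 23 to 15 bases before the start site and 33 bp from the summit. The start sites of Got2, Oat and Glul, the enzymes without a peak, had no match.

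The absence of a match at Aldh18a1 and Gpt2 holds for these letters and this window only. The window covered 209 of the 807 bp of the Aldh18a1 peak (25.9%) and 300 of the 513 bp of the Gpt2 peak (58.5%). The palindromic cAMP response element TGACGTCA was in none of the 8 promoters (1.79% of the table). The CCAAT box was in 4 of 8 against 37.4%, with 6 copies at Got1, in Pycr1 and Got1 among the enzymes with a peak and in Oat and Glul among those without. The promoters of the 8 enzymes held 55.3% to 64.3% G and C and 11 to 24 CpG, against medians of 52.7% and 7 over the table.

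**Figure D3:**
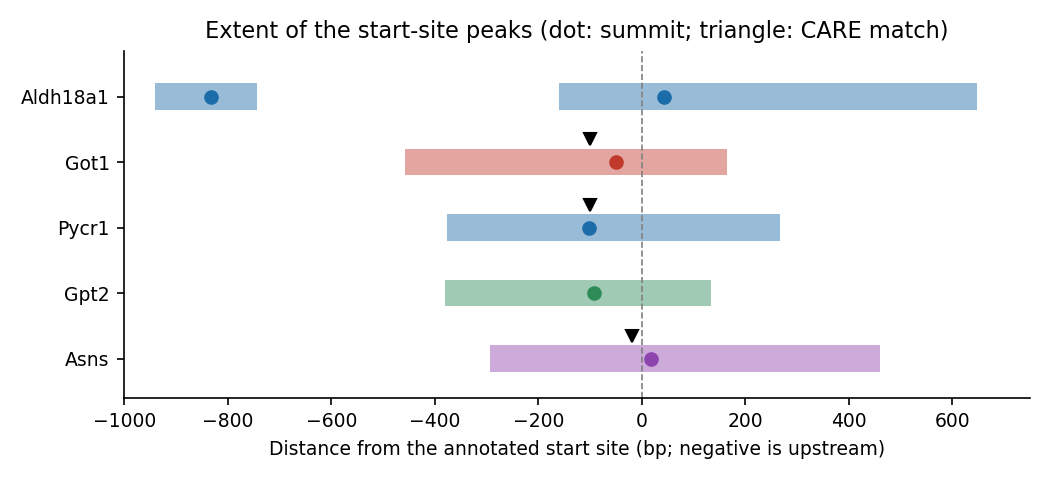
Extent of the peaks near the start sites of the 5 enzymes with a peak, in bp from the start site (dashed line, negative is upstream), with dots at the summits and triangles at matches to TGATGNAAN. The summits lie between 101 bp upstream and 43 bp downstream, apart from the second Aldh18a1 peak at 833 bp upstream, and the triangle of Pycr1 coincides with its summit.

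The enzymes were set beside all genes with a start site in the table, grouped by the height of the start-site peak. A match to TGATGNAAN was present in 3.97% of 16584 genes without such a peak (Clopper-Pearson 95% interval 3.68% to 4.28%), in 0 of 145 genes with 3 fragments (up to 2.51%) and in 1.67% of 299 genes with 4 to 5 (0.545% to 3.86%). It was in 7.07% of 283 genes with 6 to 9 fragments (4.37% to 10.7%), in 9.52% of 126 with 10 to 19 (5.02% to 16.0%) and in 41.8% of 55 with 20 or more (28.7% to 55.9%). Some neighbouring genes share a start-site peak and are each counted. The intervals take genes as independent and so may be too narrow. Aldh18a1, Got1, Pycr1 and Gpt2 belong to the class of 20 or more, and 2 of these 4 held a match, as did 21 of the other 51 (41.2%). The median G and C content of the classes was 56% without a peak, 59.7% at 3 fragments, 62% at 4 to 5, 61.7% at 6 to 9, 60.7% at 10 to 19 and 60.3% at 20 or more, and its part in these shares was not tested.

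**Figure D4:**
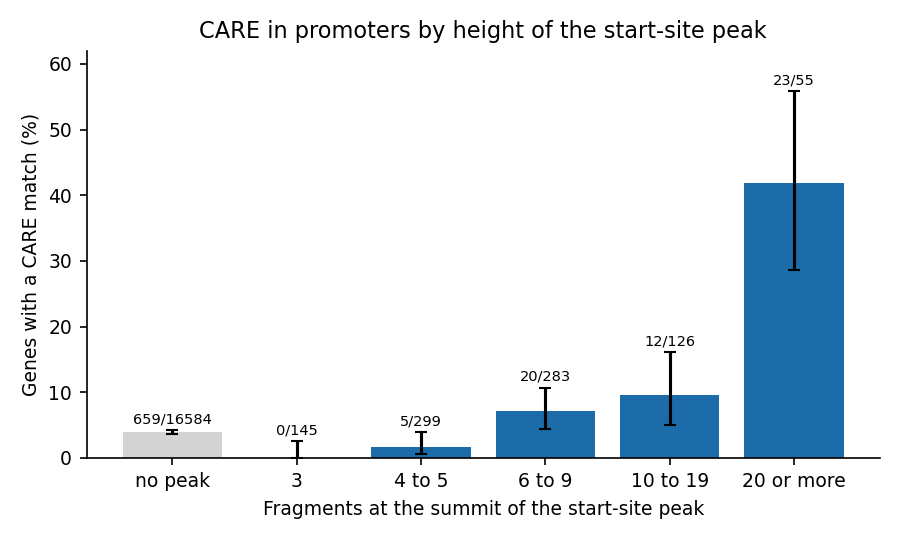
Share of genes (%) with a match to TGATGNAAN within the 300 bases around the start site, by fragments at the summit of the start-site peak, with Clopper-Pearson 95% intervals (genes taken as independent) and the counts above the bars. The share is 41.8% at 20 or more fragments and 3.97% in genes without a start-site peak (grey).

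Of 30 further genes of the same branches, 11 had a peak inside the gene or within 10 kb, which is 36.7% against 24.8% of protein-coding genes. At the stricter -log10 q limit of 5 there were 3, which is 10.0% against 6.25%. By branch, the counts with any peak were 2 of 8 proline and ornithine genes, 5 of 11 aspartate, asparagine and malate-aspartate shuttle genes, 0 of 3 alanine genes and 4 of 8 glutamate and glutamine genes. Under that limit they were 1, 1, 0 and 1.

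The 3 genes were Aldh4a1, Mdh1 and Slc25a18. Aldh4a1, which oxidizes the proline precursor back to glutamate in mitochondria, carried a peak at 139622593 to 139623128 of chromosome 4, 168 bp upstream of its start site, with 13 fragments (6.92 to 22.2) and a fold enrichment of 9.55 (q = 7.04e-12). Mdh1, the cytosolic malate dehydrogenase of the malate-aspartate shuttle, carried 1 on chromosome 11, between 21571802 and 21571980, with 9 fragments (4.12 to 17.1) and a fold enrichment of 8.28. That summit was 44 bp from the start site of Mdh1 and 79 bp from an end of Wdpcp. The summit assigned to Slc25a18, a mitochondrial glutamate carrier, held 7 fragments (2.81 to 14.4) and was nearer to Atp6v1e1, at 295 bp, than to Slc25a18, at 780 bp. Of the other 8 genes with a peak, none rested on more than 5 fragments. Among them, the summits at Got1l1, Slc25a11 and Slc25a22 lay nearer to an end of another protein-coding gene. No listed peak lay at Prodh, Odc1, Ass1, Slc25a12, Gpt, Glud1 or Gad1.

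The serine synthesis enzymes Phgdh, Psat1 and Psph, whose products feed one-carbon metabolism, had a peak in 3 of 3 genes at the stricter limit (6.25% of protein-coding genes), with 10, 10 and 8 fragments at the summit. The summits differed in place: that of Psat1 was 12 bp and that of Phgdh 601 bp downstream of the start site. That of Psph lay 3.56 kb outside the gene and 25.3 kb from its start site, with an end of Nipsnap2 at 3674 bp. The ratios therefore compare start-site peaks with peaks that are not all at a start site. Aldh18a1 exceeded Phgdh 10.5 times (exact 95% interval 5.49 to 22.5), Got1 exceeded it 6.80 times (3.48 to 14.8) and Pycr1 6.10 times (3.10 to 13.4). For Gpt2 the ratio to Phgdh was 2.20 (1.00 to 5.20) and for Asns 0.900 (0.324 to 2.46), and neither could be ranked against it at this depth. Of the 15 pairs between the 5 enzymes with a peak and the 3 serine enzymes, 10 had an interval that left out 1.

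**Figure D5:**
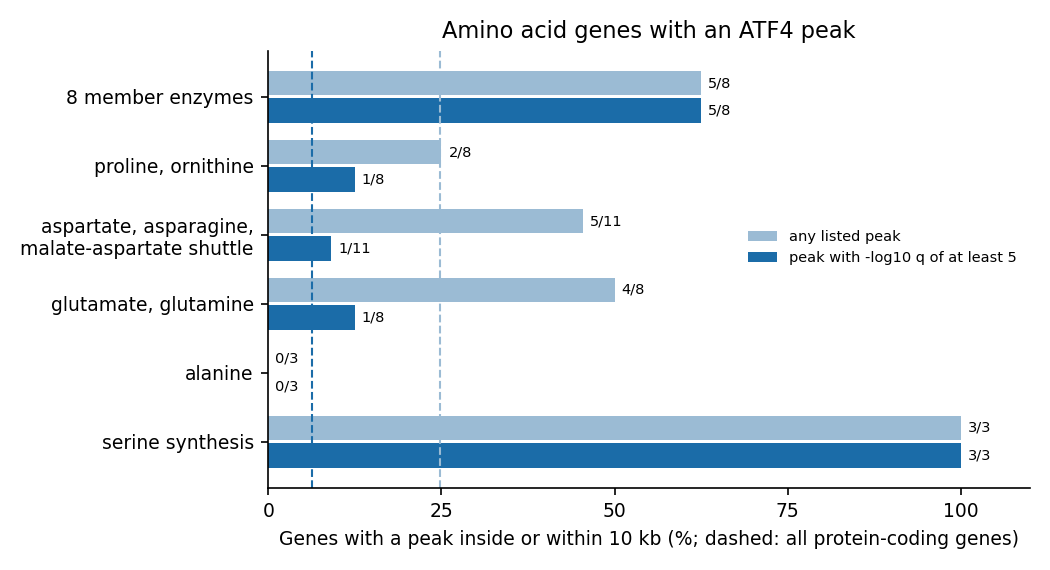
Share of genes (%) with an ATF4 peak inside the gene or within 10 kb for the 8 enzymes, the 4 lists of further genes and the serine synthesis enzymes, with any listed peak (light) and with a -log10 q of at least 5 (dark), and counts beside the bars. Dashed lines mark all protein-coding genes, 24.8% and 6.25%, and the 8 enzymes kept 5 of 8 at the stricter limit whereas the glutamate and glutamine list went from 4 to 1 of 8.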

How the data were processed

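The authors deposited the narrowPeak list of the ATF4 library, with positions, a display score (in all 7873 peaks the -log10 q times 10, truncated), fold enrichment (a ratio), and -log10 p-values and q-values. The submitters' processing notes name FastQC, BWA, MACS2 2.1.2, deepTools and mm10. The threshold, the treatment of duplicates and the use of IgG as control are not given in the sources used here, so fold enrichment cannot be read as enrichment over IgG. Samples were grouped by antibody.

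Fragments (or reads, if single reads were called) and the local background were solved from fold enrichment, taken as fragments plus 1 over background plus 1, and the p-value, taken as a Poisson upper tail, within 0.001 of the -log10 p. A solution was found for all 7873 peaks, with a second one within that tolerance in 35, none of them a peak of these enzymes, and the nearer was used. PCR copies are not independent molecules, so intervals cover counting error only. The solver and the motif search were tested on simulated data.

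Genes, start sites and promoters came from RefSeq tables of GRCm38.p6, the assembly of mm10. All 8 enzymes and all 33 further genes matched, Pycr3 as Pycrl. Distances count from the first transcribed base. The genes named are the 8 enzymes, genes whose ends lie nearer to their peaks, and genes of the wider lists with a -log10 q of at least 5. Genes listed as having no peak, and genes named for a rank or a distance, were chosen after their values were seen. The members, lists and motifs were chosen with earlier results of these data known. No test between samples was possible with 1 library per antibody. Values were computed with scipy 1.17.1, numpy 2.4.6 and pandas 2.3.3 under Python 3.11.15, and plots drawn with matplotlib 3.10.9.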

Additional observations from a re-analysis of the deposited data

How the results depend on the processing

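The count of 5 of 8 enzymes with a peak kept its value under all 6 alternatives: 3 kb and 1 kb windows, a -log10 q of at least 5, at least 6 fragments, the summit in place of overlap, and the nearest protein-coding gene. The count at gene ends was also 5 under its 6 alternatives, of which the start-site rule was chosen after seeing the data. Summing all peaks of a gene raised Aldh18a1 from 105 to 131 fragments and Gpt2 from 22 to 36, and raised the ratios of proline to aspartate from 1.54 to 2.82, to asparagine from 11.7 to 21.3 and to alanine from 4.77 to 5.33, but such sums follow the number of genes and peaks listed: proline had 4 peaks of 2 genes, 1 of them inside Gm27042, over 1815 bp with a mean of 48 fragments, aspartate 1 peak (621 bp, 68 fragments), asparagine 1 (753 bp, 9) and alanine 3 (995 bp, mean 12). With fold enrichment in place of fragments the ratios of proline to aspartate, alanine and asparagine were 1.03, 1.40 and 2.40. The further genes with a peak numbered 11 of 30, 9 with a 1 kb window and 3 with a -log10 q of at least 5. The enzymes with a promoter match numbered 3 for TGATGNAAN, 1 for TGATGNAAT (0.965% of all promoters), 1 for TGATGCAAT and 0 for TGACGTCA. Searches in whole peaks were not run, as no genome sequence was used here. No paired analysis was possible because each antibody has 1 library. At this depth a peak of 3 fragments has an interval of 0.619 to 8.77, and Asns could not be ranked against Phgdh (ratio 0.900, 0.324 to 2.46).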
